A study of Homo sapiens with 8 samples.

Results

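In the human ovarian carcinoma line A2780 made resistant to cisplatin, the derivatives CPR40 and CPR55 carried the highest ratios of the small heat shock protein CRYAB and the smooth muscle actin ACTA2 to the parental line. The comparison described here sets the 4 arrays of CPR40 and CPR55 against the 4 arrays of CPR20 and CPR70, which are all 8 arrays of the series. It asks which other genes stood apart in the same way and which in the opposite way. The grouping is not the study's own. The pairs were chosen by the measured log2 ratios of CRYAB and ACTA2 on these arrays, so these genes are described with no test.

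All 4 derivatives are labelled cisplatin resistant and come from a series made progressively more resistant. The labels do not explain the number in a derivative's name, and do not say whether a derivative is a clone or whether cisplatin was in the medium at harvest. Cells of every line were grown in RPMI1640 medium with fetal calf serum. Each spotted cDNA array held RNA of 1 derivative in Cy5 and RNA of the cisplatin-sensitive parental line, CPR00, in Cy3. Every derivative had a replicate 1 and a replicate 2 array. Values are log2 ratios of derivative over parental line after loess normalisation within the array, so 0 is the parental level and 1 is a doubling. The parental RNA and any effect of the dyes are common to both pairs. They cancel in the difference as far as the parental channel reads alike on the arrays. For some genes it did not. Differences by channel, given for several of these, are CPR40 and CPR55 minus CPR20 and CPR70 in log2, with brightness equalised between arrays. No label ties replicate 1 and replicate 2 to different cultures, and errors may hold technical spread alone.

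CRYAB, or alpha B-crystallin, is a chaperone that holds unfolding proteins in solution and binds the intermediate filament desmin and actin in muscle. Some small heat shock proteins are induced through heat shock factor 1 in many cells, while CRYAB in lens and muscle also has enhancers of its own. ACTA2 is the actin of vascular smooth muscle and of myofibroblasts, and its transcription there depends on serum response factor, which binds CArG boxes. Tumour cell lines of epithelial origin can express either gene.

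CRYAB had log2 ratios of 3.36 and 3.54 on the CPR40 arrays and 3.43 and 1.39 on the CPR55 arrays. On the CPR20 arrays it had 0.71 and 0.91, and on the CPR70 arrays 0.69 and -0.57. All 4 arrays of CPR40 and CPR55 lay above all 4 of CPR20 and CPR70, and the replicate 2 array was the low one in CPR55 and in CPR70. The pair means were 2.93 ± 1.03 and 0.43 ± 0.68 (SD, 4 arrays each), a difference of 2.50 ± 0.48 (SE of the fit), or 4.25 in the authors' deposited log2 values. The CRYAB signal was above the empty spots on 4 arrays of CPR40 and CPR55, on 2 of CPR20 and CPR70 and on 0 of 8 in the parental channel, so its ratios are set against a channel at background.

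ACTA2 had log2 ratios of 2.86 and 4.07 in CPR40 and 2.03 and 3.41 in CPR55, against 1.15 and 1.90 in CPR20 and 0.95 and 1.62 in CPR70. The replicate 2 array was the higher one in each derivative, and the pairs did not overlap. ACTA2 therefore lay above the parental level on every array, which CRYAB did not. Its pair means were 3.09 ± 0.87 and 1.40 ± 0.43 (SD, 4 arrays each), a difference of 1.69 ± 0.25 (SE). With the normexp background correction the ACTA2 difference was 0.70.

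**Figure D1:**
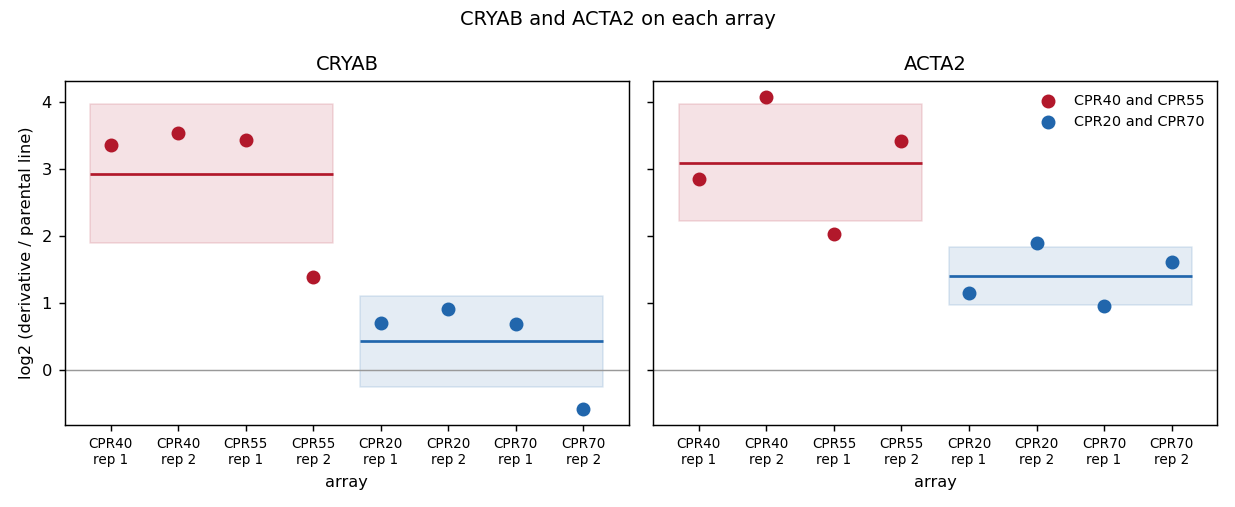
Log2 ratio of derivative over parental line (vertical axis) for CRYAB (left panel) and ACTA2 (right panel) on each of the 8 arrays. Points are arrays, lines are the means of the 4 arrays of a pair and shaded boxes span 1 SD either side. CRYAB in CPR55 replicate 2, at 1.39, is the lowest of its pair and still above the CPR20 and CPR70 arrays.

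The promoter windows below, from RefSeq (GRCh38.p14), cover 250 bases before to 50 bases after a start site. They are shown because ACTA2 carries the pattern and its close relative ACTG2 does not. The heat shock gene CHORDC1 is shown because its ratio stood on the opposite side to CRYAB. Its derivative channel did not, with a difference of 0.51 there and 1.21 in the parental channel. CRYAB itself is not in the promoter table used here. Capitals mark matches to the TATA box (TATANA), to pairs of heat shock half-sites (GAANNTTC and TTCNNGAA) and to the CArG box (CCWWWWWWGG, where W is A or T). Each was searched on both strands. ACTA2 has 2 start sites in the table, both on the minus strand. At the first, chr10:88952724-88953023, a TATA box match begins at base -29 from the start site and reads the same on both strands. The strict CArG letters have no match there. The window does hold ccctatatgg and ccttgtttgg, each with a G or C inside the A and T core.
ACTA2, chr10:88952724-88953023, minus strand: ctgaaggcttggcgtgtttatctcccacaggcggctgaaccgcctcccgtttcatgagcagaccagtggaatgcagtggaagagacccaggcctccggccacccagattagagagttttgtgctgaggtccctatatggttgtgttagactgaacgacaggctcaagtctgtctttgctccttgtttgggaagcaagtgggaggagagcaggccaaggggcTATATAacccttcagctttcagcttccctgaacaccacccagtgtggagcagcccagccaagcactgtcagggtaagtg
At the second, chr10:88991288-88991587, the match is to TTCNNGAA at base -178.
ACTA2, chr10:88991288-88991587, minus strand: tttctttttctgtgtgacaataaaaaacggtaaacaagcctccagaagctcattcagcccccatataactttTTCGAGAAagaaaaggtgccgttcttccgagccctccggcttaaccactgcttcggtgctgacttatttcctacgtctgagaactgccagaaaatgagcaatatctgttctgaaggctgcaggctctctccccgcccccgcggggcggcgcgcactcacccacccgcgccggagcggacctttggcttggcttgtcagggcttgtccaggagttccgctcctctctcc
ACTG2, the smooth muscle actin of the gut, has CArG boxes beginning at -110 and -73 and a TATA box at -31 on the other strand.
ACTG2, chr2:73892758-73893057, plus strand: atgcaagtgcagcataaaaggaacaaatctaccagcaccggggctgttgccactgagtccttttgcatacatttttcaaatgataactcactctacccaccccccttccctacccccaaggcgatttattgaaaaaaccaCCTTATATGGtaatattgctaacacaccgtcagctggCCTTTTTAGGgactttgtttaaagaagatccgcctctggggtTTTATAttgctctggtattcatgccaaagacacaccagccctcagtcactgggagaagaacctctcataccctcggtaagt
CHORDC1, which works with the chaperone HSP90, has 6 half-site pairs, of which those from -60 to -45 overlap each other.
CHORDC1, chr11:90223000-90223299, minus strand: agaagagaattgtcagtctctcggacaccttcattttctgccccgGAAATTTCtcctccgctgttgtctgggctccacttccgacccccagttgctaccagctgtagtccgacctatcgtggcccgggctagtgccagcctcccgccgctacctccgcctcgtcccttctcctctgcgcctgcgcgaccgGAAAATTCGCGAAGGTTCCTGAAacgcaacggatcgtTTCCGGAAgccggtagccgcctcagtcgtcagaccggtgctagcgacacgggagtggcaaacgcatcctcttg
A CArG box lies in 1.29% of the 35116 promoter windows in the table, GAANNTTC in 6.77%, TTCNNGAA in 7.74% and TATANA in 19%. These matches describe letters in the window and say nothing of binding.

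The signal was limited in both dyes. Between 24.2% and 43.5% of clone spots were above the empty spots in the derivative channel on the CPR40 and CPR55 arrays, against 37.7% to 59% on the CPR20 and CPR70 arrays. In the parental channel the share was 18.1% to 40.4% over the 8 arrays. The part of this difference in brightness in the results below was not tested. ADAMTS5, MAP1LC3A, NRP2, FGF2 and CLDN16 are among the genes below whose parental channel was above the empty spots on 0 of 8 arrays. For GATA3 and HOXA13 it was on 1. Their ratios are set against a channel at or near background. Log2 ratios correlated across 10807 probes at 0.48 to 0.72 between the derivatives of a pair in the same array set, at 0.41 to 0.66 between derivatives of different pairs in the same set, and at 0.33 to 0.44 between replicates of 1 derivative. Different derivatives in different sets correlated at 0.22 to 0.48, a range that holds the one of the replicates. The ranges within an array set overlap, the arrays share the parental RNA, and probes are not independent replicates. The replicate number marks an array set and was a term in the fit.

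No probe passed the test in the comparison of the pairs. Of 13186 probes 0 (0%) had a Benjamini-Hochberg adjusted p under 0.05 in limma, and the smallest was 0.0996. That fit counts both arrays of a derivative as separate. In limma on derivative means the smallest adjusted p was 0.648. With derivative as the factor it was 0.195, and as a random block 0.0896. At an unadjusted p under 0.05 there were 510 probes on the positive side (3.87%) and 512 on the negative side (3.88%). Alternatives of the processing gave between 0 and 3 probes past the threshold, all named below. Of 10807 probes with values on all 8 arrays, 496 (4.59%) had both CPR40 and CPR55 above both CPR20 and CPR70 in each array set, as CRYAB and ACTA2 do. The opposite order in each set was seen for 557 (5.15%), so that 9.74% had either order. Called pairs apart here, this order was required of the genes described next, so it is no evidence about them. A gene is given by its brightest clone.

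ADAMTS5, a secreted metalloprotease that cleaves aggrecan, had log2 ratios of 2.57 and 2.39 in CPR40 and 2.65 and 2.08 in CPR55. It had 0.85 and 0.71 in CPR20, and -0.01 and 0.33 in CPR70. No array of CPR40 or CPR55 came near those of CPR20 and CPR70, and the spread within a pair was small beside the gap. Its derivative channel was above the empty spots on 4 arrays of CPR40 and CPR55 and on 2 of CPR20 and CPR70. The difference was 1.95 ± 0.23 (SE, 8 arrays, adjusted p = 0.0996 in limma), the smallest adjusted p of any gene in that direction. GATA3, a zinc finger transcription factor of T cells and luminal epithelium, had 2.73 and 1.14 in CPR40 and 2.70 and 2.68 in CPR55, against 0.44 and -0.05 in CPR20 and 0.68 and 0.20 in CPR70. Its CPR40 replicate 2 array was lower than the other arrays of the pair, without reaching CPR20 or CPR70. The difference was 1.99 ± 0.31 (adjusted p = 0.271). Without the CPR40 replicate 2 array GATA3 was at 2.33 and passed (adjusted p = 0.0453 in limma, with 0.0453 to 0.944 over 26 alternatives).

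AHNAK, a very large scaffold protein under the cell membrane, had 1.40 and 0.89 in CPR40 and 1.97 and 1.18 in CPR55, against 0.39 and 0.20 in CPR20 and -0.07 and -0.30 in CPR70. The pair mean was near the parental level in CPR20 and CPR70 and above it in CPR40 and CPR55, with a difference of 1.31 ± 0.22 (SE, adjusted p = 0.328). MAP1LC3A, an autophagosome protein of the LC3 family, had 0.80 and 1.12 in CPR40 and 0.73 and 0.61 in CPR55, against -0.16 and -0.23 in CPR20 and -0.06 and -0.17 in CPR70. Its arrays were tight within each pair, and the difference was 0.97 ± 0.16 (adjusted p = 0.316). CCND1, the cyclin D1 that drives entry into S phase, had 0.39 and -0.28 in CPR40 and 0.64 and 0.51 in CPR55, against -0.70 and -1.04 in CPR20 and -0.88 and -1.10 in CPR70. CPR20 and CPR70 lay below the parental level on every array, with a difference of 1.25 ± 0.20 (adjusted p = 0.289). A second, dimmer CCND1 clone was on the other side, at -0.48.

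The remaining genes of the 8 with the smallest p on the positive side are less well known. KIAA1043 was at 0.87 and KIAA0202 at 0.90 in the difference between the pairs, with no current gene matched to either name. CALML5, a calmodulin-like protein of skin, was at 0.78, and was not above the empty spots on any CPR20 or CPR70 array. Against that background its derivative signal was at least 1.23-fold higher in CPR40 and CPR55, where it was above the empty spots on 1 array. The adjusted p values of these 3 genes ran from 0.369 to 0.402.

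Some genes had larger differences with wider spread. They were picked after their values were seen, as those with an absolute difference of at least 1.5. HOXA13, a homeodomain factor of limb and hindgut patterning, had 2.86 and 1.25 in CPR40 and 2.95 and 2.05 in CPR55, against 0.56 and 0.36 in CPR20 and -0.85 and 0.59 in CPR70. Its difference of 2.11 ± 0.45 (SE, adjusted p = 0.479) was 3.05 in the replicate 1 arrays and 1.18 in the replicate 2 arrays. NRP2, a co-receptor for semaphorins and VEGF, had 2.74 and 1.41 in CPR40 and 2.75 and 2.32 in CPR55, against 1.34 and 0.54 in CPR20 and 0.73 and -1.11 in CPR70. The lowest array of CPR40 and CPR55 was only just above the highest of CPR20 and CPR70. The difference was 1.93 ± 0.38 (adjusted p = 0.442), and a second NRP2 clone stood at 2.26. NDUFB5, a subunit of respiratory complex I, was at 1.67 ± 0.47 with 2.90 on the CPR40 replicate 1 array and at most 0.72 on the others of the pair. It was not above the empty spots in CPR20 or CPR70, against which its derivative signal was at least 1.62-fold higher. PLCG1, a phospholipase of growth factor signalling, was at 1.76 ± 1.00, a value set by the CPR20 replicate 2 array at -5.51. PLCG1 was above the empty spots on 0 arrays of CPR40 and CPR55. Its other 7 arrays lay between -0.49 and 0.21, and without that array the difference was 0.49.

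For other genes CPR20 and CPR70 were below the parental level, and CPR40 and CPR55 were less so. COL3A1, a fibrillar collagen, had -2.59 and -1.33 in CPR40 and -2.48 and -0.37 in CPR55, against -3.25 and -2.36 in CPR20 and -4.84 and -3.61 in CPR70. The arrays overlap across sets but not within a set, and the difference was 1.82 ± 0.42 (SE, adjusted p = 0.504). GYG2, a glycogenin that primes glycogen in liver, averaged -0.20 ± 0.58 in CPR40 and CPR55 and -1.71 ± 0.60 in CPR20 and CPR70 (SD, 4 arrays each). Its CPR40 and CPR55 arrays ran from -0.66 to 0.63, on both sides of the parental level. The difference was 1.51 ± 0.35 (SE, adjusted p = 0.504 in limma). The derivative channel of GYG2 was above the empty spots on 1 array of each pair. HAPLN1, which links hyaluronan to proteoglycans, had -4.81 and -4.14 in CPR40 and -4.66 and -3.96 in CPR55, against -5.01 and -4.46 in CPR20 and -5.40 and -4.97 in CPR70. Its derivative channel was above the empty spots on 1 and 2 of the 4 arrays of each pair, and the difference was 0.57 ± 0.18 (adjusted p = 0.582). A second HAPLN1 clone stood at 1.14.

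**Figure D2:**
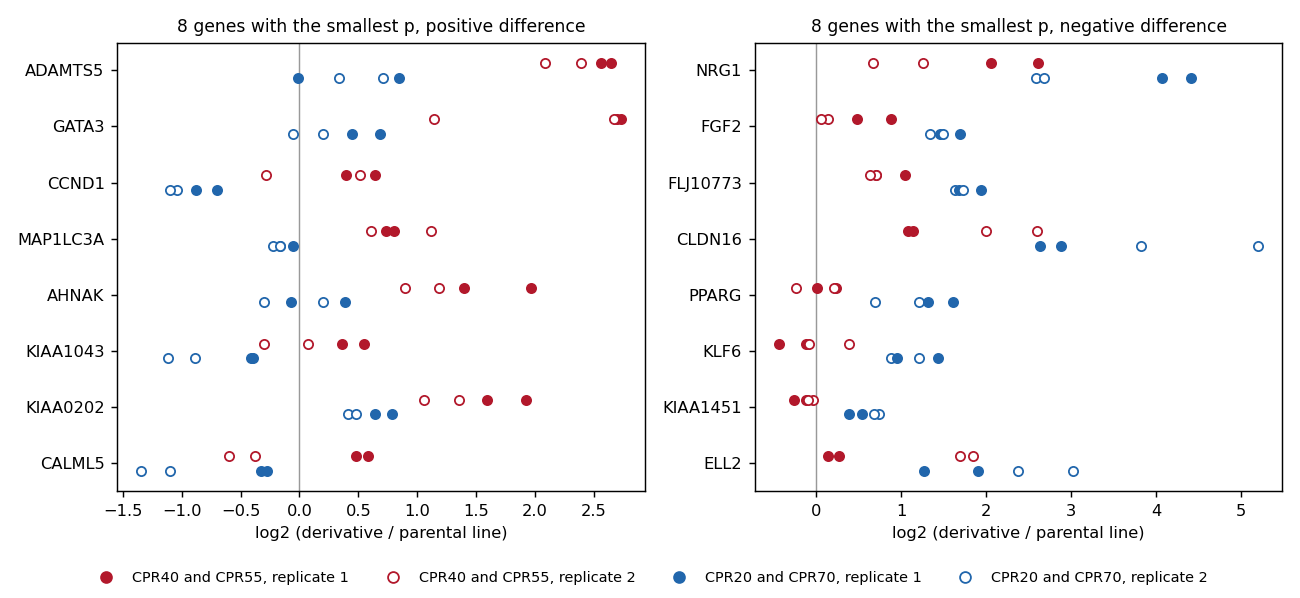
Log2 ratio of derivative over parental line (horizontal axis) on each array for the 8 genes with the smallest p on the positive side (left) and the negative side (right). Points are arrays, filled for replicate 1 and open for replicate 2. ADAMTS5 lies at 2.08 to 2.65 in CPR40 and CPR55 and at -0.01 to 0.85 in CPR20 and CPR70, and NRG1 shows a gap in each array set with replicate 1 above replicate 2 in both pairs.

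NRG1, a growth factor that binds the receptors ERBB3 and ERBB4, led the opposite side. It had 2.06 and 0.67 in CPR40 and 2.61 and 1.26 in CPR55, against 4.07 and 2.59 in CPR20 and 4.41 and 2.68 in CPR70. Every derivative was above the parental level, and replicate 1 was above replicate 2 in each, so that the pairs were apart in each set while CPR55 replicate 1 touched the CPR20 and CPR70 replicate 2 arrays. The difference was -1.79 ± 0.20 (SE, 8 arrays, adjusted p = 0.0996 in limma). It was -1.90 in the replicate 1 arrays and -1.67 in the replicate 2 arrays. NRG1 passed with an offset of 200 (adjusted p = 0.00181) and with a trended, robust prior (0.0363). Its adjusted p ran from 0.00181 to 0.944 and its difference from -2 to -0.60 over 26 alternatives.

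FGF2, the basic fibroblast growth factor, had 0.88 and 0.14 in CPR40 and 0.49 and 0.05 in CPR55, against 1.69 and 1.34 in CPR20 and 1.46 and 1.49 in CPR70. CPR20 and CPR70 were alike and above the parental line, and CPR40 and CPR55 lay closer to it. The parental channel of FGF2 was above the empty spots on 0 of 8 arrays, so these levels are set against background. The difference was -1.11 ± 0.17 (SE, adjusted p = 0.271). The derivative channel of FGF2 differed by -0.59 and its parental channel by 0.52. CLDN16, a claudin of tight junctions in the kidney, had 1.08 and 2.6 in CPR40 and 1.14 and 2.00 in CPR55, against 2.88 and 3.82 in CPR20 and 2.64 and 5.21 in CPR70. Replicate 2 was the higher array in each derivative, the reverse of NRG1. Its difference was -1.93 ± 0.31 (adjusted p = 0.292), and it passed with scaling between arrays (adjusted p = 0.0319, with 0.0319 to 0.975 over 26 alternatives). Its difference ran from -2.59 with normexp to -0.19 with the authors' deposited log2 values.

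KLF6, a zinc finger transcription factor, had -0.12 and -0.08 in CPR40 and -0.44 and 0.39 in CPR55, against 1.44 and 0.89 in CPR20 and 0.95 and 1.20 in CPR70. CPR40 and CPR55 were at the parental level and CPR20 and CPR70 above it, with a difference of -1.18 ± 0.22 (SE, adjusted p = 0.417). PPARG, the nuclear receptor of fat cell formation, showed the same layout, with -0.24 to 0.23 in CPR40 and CPR55 and 0.69 to 1.60 in CPR20 and CPR70. Its difference was -1.16 ± 0.20 (adjusted p = 0.328). The derivative channel of PPARG differed by -0.60 and its parental channel by 0.56. PPARG was above the empty spots on 0 arrays of CPR40 and CPR55 and on 2 of CPR20 and CPR70. Its difference stood at 0.0037 with the authors' deposited log2 values. ELL2, an elongation factor of RNA polymerase II, was at -1.16 ± 0.22 (adjusted p = 0.437), and its other clones at -0.58 and -0.39. FLJ10773 (-0.97) and KIAA1451 (-0.72) complete the 8, and no current gene was matched to these names. KIAA1451 was not above the empty spots in CPR40 or CPR55.

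Genes of larger difference on the negative side were wider in spread. MID1, a ubiquitin ligase on microtubules, had 1.31 and 0.69 in CPR40 and 3.47 and 1.87 in CPR55, against 4.37 and 3.10 in CPR20 and 3.97 and 5.68 in CPR70. It was above the parental level on every array, and CPR55 replicate 1 lay above CPR20 replicate 2. The difference was -2.44 ± 0.68 (SE, adjusted p = 0.573). MYO6, a myosin that moves to the minus end of actin filaments, had 0.39 and 0.89 in CPR40 and -0.85 and 0.73 in CPR55, against 1.79 and 1.79 in CPR20 and 1.03 and 2.81 in CPR70. It was not above the empty spots in CPR40 or CPR55, where its derivative signal was at least 1.60-fold lower than in CPR20 and CPR70. Its difference was -1.56 in the loess-normalised values and -0.04 in the authors' deposited log2 values. TSPAN13, a tetraspanin, had 2.99 and 3.41 in CPR70 but -0.10 and 1.32 in CPR20, so its difference of -1.66 lay largely in 1 derivative of the pair. It was not above the empty spots in CPR40 or CPR55, where its derivative signal was at least 2.11-fold lower. CPR70 minus CPR20 was 2.58 for this gene.

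**Figure D3:**
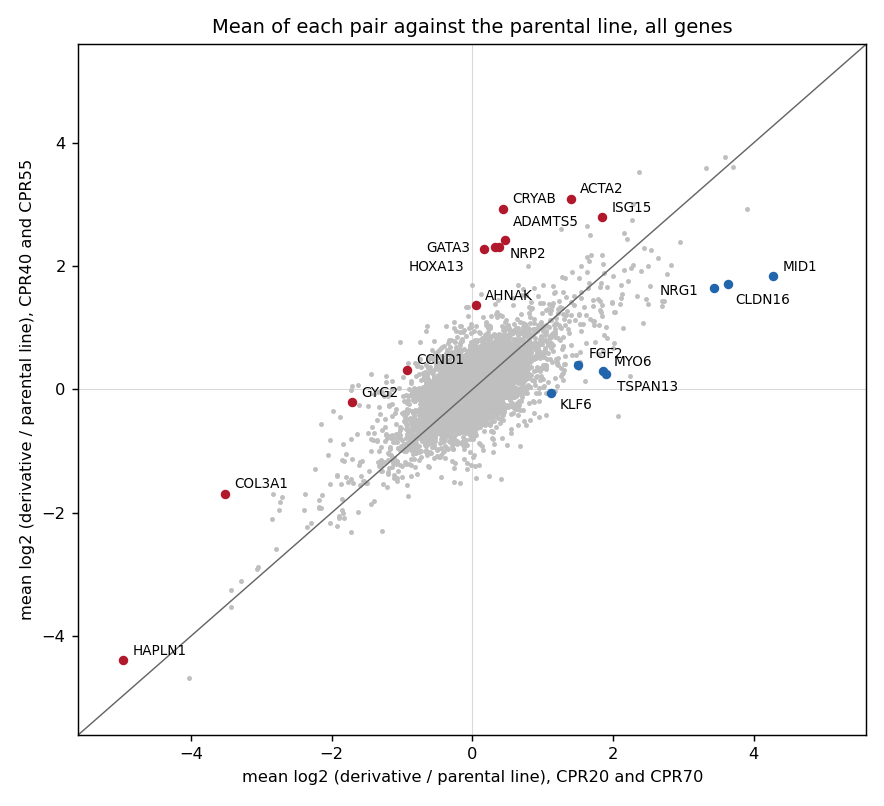
Mean log2 ratio over the 4 arrays of CPR40 and CPR55 (vertical axis) against the mean over the 4 arrays of CPR20 and CPR70 (horizontal axis), 1 point per gene, with genes of the text in red (above the diagonal) and blue (below it). CRYAB, at 2.93 and 0.43, and MID1, at 1.83 and 4.28, lie far from the diagonal on opposite sides, and most genes lie near 0 in both pairs.

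The level of a gene relative to the parental line was not part of the choice by order. Of 383 genes with the pairs apart as in CRYAB (4.67% of 8202), 225 had both pair means within 0.5 of the parental level. In 74 the mean of CPR40 and CPR55 was over 0.5 and that of CPR20 and CPR70 within 0.5, as in CRYAB, ADAMTS5, GATA3 and AHNAK. In 59 CPR40 and CPR55 were within 0.5 and CPR20 and CPR70 below -0.5, as in CCND1. Both pairs were over 0.5 in 16, ACTA2 among them, and both below -0.5 in 7, such as COL3A1 and HAPLN1. In the last 2 CPR40 and CPR55 were over 0.5 and CPR20 and CPR70 below -0.5. Of 433 genes apart in the opposite order (5.28%, or 9.95% for both orders), 257 had both means within 0.5. CPR20 and CPR70 were over 0.5 and CPR40 and CPR55 within it in 98, among them FGF2, KLF6 and PPARG. Both pairs were over 0.5 in 26, among them NRG1, CLDN16 and MID1. CPR40 and CPR55 were below -0.5 and CPR20 and CPR70 within 0.5 in 43, and both pairs were below -0.5 in 6. The edge of 0.5 was chosen after the values were seen.

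The genes most like CRYAB and ACTA2 were ranked by correlation with their mean over the 8 arrays, after centring each array set, among genes with a difference of at least 1. The correlation describes 8 arrays that share the parental RNA, and CRYAB and ACTA2 chose the pairs. FLJ10781, which was matched to no current gene, had r = 0.95, with -0.43 and -0.01 in CPR40 and -0.37 and -1 in CPR55, against -1.09 and -2 in CPR20 and -1.80 and -2.65 in CPR70. It was below the parental level on every array and least so in CPR40 and CPR55. ADAMTS5 had r = 0.93 and MYL5, a regulatory light chain of myosin, r = 0.91, although MYL5 was above the empty spots on 0 arrays of CPR40 and CPR55 and 1 of CPR20 and CPR70. TFF2, a trefoil peptide of mucosa (r = 0.94), and SOX9, a transcription factor of cartilage and progenitor cells (r = 0.86), were not above the empty spots in any derivative. The derivative and parental channels differed by -0.09 and -1.13 for MYL5 and by 0.13 and -0.95 for TFF2. NRG1 was the most opposite gene at r = -0.97. NDST2, an enzyme of heparan sulfate, followed at -0.93, then KLF6 (-0.91), the membrane protein EMP1 (-0.91) and MID1 (-0.90). NDST2 was not above the empty spots in CPR40 and CPR55, with a derivative signal at least 1.41-fold lower there. EMP1 had -0.46 and 0.74 in CPR40 and 0.04 and 1.04 in CPR55, against 1.5 and 1.63 in CPR20 and 0.66 and 2.27 in CPR70. Its derivative channel differed by 0.08 and its parental channel by 1.26.

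PSMC4, an ATPase subunit of the proteasome, gave opposite values from its 2 clones. The dimmer clone had the smallest unadjusted p of all probes and a difference of 1.87 ± 0.21 (SE, 8 arrays, adjusted p = 0.0996 in limma). It had 2.76 and 1.78 in CPR40 and 2.24 and 1.90 in CPR55, against 0.25 and 0.44 in CPR20 and 0.27 and 0.25 in CPR70. The pairs did not overlap in this clone. The brighter clone was at -0.54 ± 0.24, with 0.09 and 0.29 in CPR40 and -0.71 and -0.39 in CPR55, against 0.61 and 0.28 in CPR20 and 0.30 and 0.23 in CPR70. No direction is given for PSMC4, and of 29 proteasome genes measured 0 passed (median difference -0.02).

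The other small heat shock proteins lay closer to 0 than CRYAB. Of 8 listed, 6 were measured, 0 passed, and the median difference over the 5 other than CRYAB was 0.39, against -0.003 over all 9840 genes. At an unadjusted p under 0.05 the list had, besides CRYAB, 1 member on the positive side, HSPB3, against 381 of all genes (3.87%), and 0 on the negative side, against 387 (3.93%, or 7.8% for both sides). HSPB3, a small heat shock protein of muscle, was at 0.88 and was not above the empty spots in any channel. HSPB2, which neighbours CRYAB on chromosome 11, had -0.74 and 0.19 in CPR40 and 0.19 and 0.00 in CPR55, against -0.14 and -0.09 in CPR20 and 0.45 and -2.14 in CPR70. Its pairs overlapped, and its difference of 0.39 ± 0.51 (SE, adjusted p = 0.84) was -0.43 in the replicate 1 arrays and -0.19 without the CPR70 replicate 2 array.

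The larger chaperones of the heat shock factor 1 list had a median of -0.08 over 17 genes measured, with 6 above 0, 11 below and 0 passed. CHORDC1 had 0.44 and -0.24 in CPR40 and -0.24 and -0.31 in CPR55, against 1.29 and -0.14 in CPR20 and 0.60 and 0.68 in CPR70. Its pairs were apart in each array set and overlapped across sets, with a difference of -0.69 ± 0.26 (SE, adjusted p = 0.634). Its derivative channel was higher in CPR40 and CPR55 by 0.51 and its parental channel by 1.21. FKBP4, an immunophilin that binds HSP90, was at -0.39 ± 0.16 (adjusted p = 0.637). DNAJB1, the partner of HSP70 chaperones, was at 0.47 ± 0.22 (adjusted p = 0.681, 7 arrays) and not above the empty spots in any channel. Its derivative channel differed by 0.04 and its parental channel by -0.44.

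The actin and contractile list, largely targets of serum response factor, was centred near 0. Of 34 genes listed 26 were measured and 0 passed, and of the 25 other than ACTA2 11 were above 0 and 14 below, with a median of -0.02. ACTG2 had 0.53 and 1.79 in CPR40 and 0.25 and 1.33 in CPR55, against 0.54 and 1.16 in CPR20 and 0.19 and 1.09 in CPR70. It was above the parental level on every array, with overlapping pairs and a difference of 0.23 ± 0.18 (SE, adjusted p = 0.754), or -0.22 with the normexp background correction. Clones of these actins can bind each other's cDNA. TMSB4X, a thymosin that holds actin monomers, was at 0.55 ± 0.22 (adjusted p = 0.634) with 1.19 to 2.75 in CPR40 and CPR55 and 0.76 to 2.16 in CPR20 and CPR70. LMOD1, an actin nucleator of smooth muscle, was at 0.61 and not above the empty spots in any derivative. Its derivative channel differed by 0.05 and its parental channel by -0.57.

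Proteases of the matrix and their inhibitors had a median of 0.38. Of 16 genes measured 13 were above 0 and 3 below, 0 passed, and 4 had an unadjusted p under 0.05 on the positive side (3.87% of all genes) and 0 on the negative side (3.93%). ADAMTS5 is not in this list. ADAMTS1, a related aggrecan-cleaving protease, had 2.02 and 1.22 in CPR40 and 2.14 and 1.38 in CPR55, against 0.55 and 1.05 in CPR20 and 0.31 and 0.70 in CPR70. The pairs did not overlap, and the difference of 1.04 ± 0.26 (SE, adjusted p = 0.517) was 1.65 in the replicate 1 arrays and 0.43 in the replicate 2 arrays. CTSB, the lysosomal cathepsin B, was at 0.68 (at least 1.44-fold) and the gelatinase MMP9 at 0.44, each with signal above the empty spots on at most 1 array of a pair. Of 28 collagens and other matrix genes 0 passed, with a median of 0.07.

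DNA replication genes had the lowest list median, at -0.26. Of 25 measured 2 were above 0 and 23 below, 0 passed, and 3 had an unadjusted p under 0.05 on the negative side (3.93% of all genes) and 0 on the positive side (3.87%). The median member was at -0.12 in CPR40 and CPR55 and at 0.13 in CPR20 and CPR70, so both pairs were close to the parental level. PRIM1, the catalytic subunit of primase, had -0.17 and -0.37 in CPR40 and -0.04 and -0.36 in CPR55, against 1.24 and 0.26 in CPR20 and 0.18 and 0.50 in CPR70. The pairs did not overlap, with a difference of -0.78 ± 0.23 (SE, adjusted p = 0.573), but PRIM1 was not above the empty spots in CPR40 or CPR55. CDT1, which licenses replication origins and was also not above them in that pair (at least 1.09-fold lower), was at -0.60 and TYMS, thymidylate synthase, at -0.36 (adjusted p = 0.635 and 0.637). EXO1, an exonuclease of mismatch repair, had -0.40 and -0.43 in CPR40 and -0.62 and -0.45 in CPR55, against -0.02 and 0.08 in CPR20 and 0.17 and 0.27 in CPR70. Its arrays were tight within each pair, with a difference of -0.60 ± 0.14 (adjusted p = 0.504). The derivative and parental channels differed by -0.27 and 0.33 for EXO1 and by -0.34 and 0.44 for PRIM1. They differed by -0.37 and 0.23 for CDT1 and by -0.31 and 0.05 for TYMS. The mismatch repair list as a whole did not lie on the negative side. Of 9 genes measured 6 were above 0 and 3 below, 0 passed, and the median was 0.15. Of 35 cell cycle and mitosis genes 12 were above 0 and 23 below, 0 passed, and the median was -0.08. MAD2L1, of the spindle checkpoint, was at -0.59 and CDKN2C, an inhibitor of cyclin D kinases, at 0.45.

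**Figure D4:**
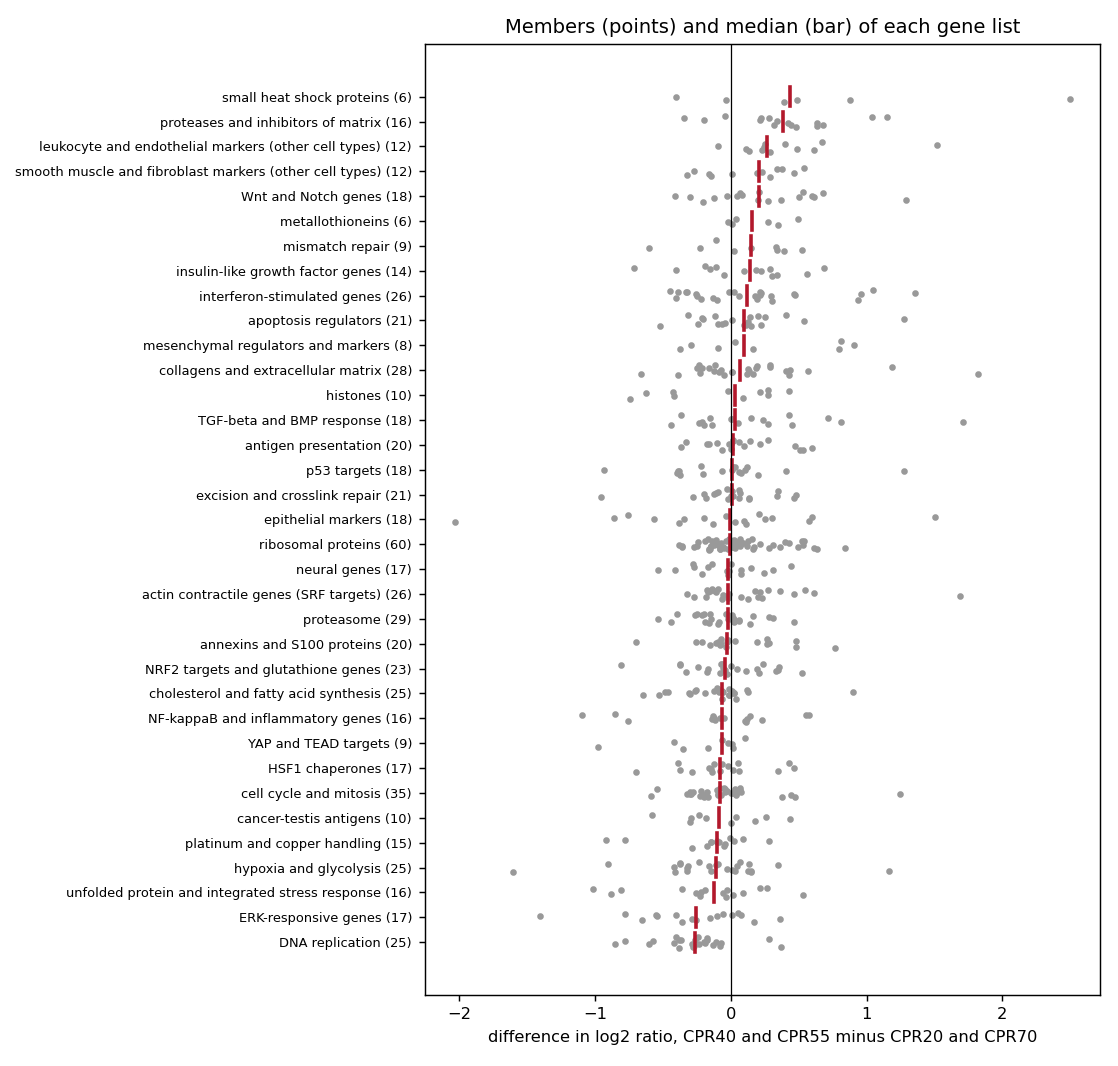
Difference in log2 ratio, CPR40 and CPR55 minus CPR20 and CPR70 (horizontal axis), for the measured members of each of 35 gene lists (grey points, with the number of members in brackets) and their median (red bar). Medians run from -0.26 for DNA replication to 0.44 for small heat shock proteins (CRYAB included), and CRYAB is the point farthest to the right.

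Of the epithelial markers 9 were above 0 and 9 below, with a median of -0.002 and 0 of 18 passed. KRT18, a keratin of simple epithelia, had 0.03 and 2.29 in CPR40 and 0.26 and 2.46 in CPR55, against 0.38 and 3.13 in CPR20 and 0.59 and 3.20 in CPR70. The array set moved KRT18 far more than the pair, and the difference was -0.57 ± 0.16 (SE, adjusted p = 0.573). The mucin MUC1 was at -0.86 (adjusted p = 0.632). Its signal was above the empty spots on 1 array of CPR40 and CPR55 and 0 of CPR20 and CPR70. Its derivative channel differed by 0.01 and its parental channel by 0.88. KRT18 was above the empty spots on all 8 derivative arrays, whereas 7 of the 18 markers, KRT8 and OCLN among them, were not on any.

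Markers of other cell types were looked at as well. Of 12 smooth muscle and fibroblast markers 8 were above 0, with a median of 0.21, and their summed log2 ratio ran from -0.75 to 1.07 in CPR40 and CPR55 and from -3.38 to 0.20 in CPR20 and CPR70. DES, CNN1, PDGFRB, FAP and DCN were not above the empty spots on any derivative array. Of 12 leukocyte and endothelial markers 11 were above 0, with a median of 0.27 and a summed log2 ratio of -0.37 to 2.6 in CPR40 and CPR55 and -5.69 to -2.74 in CPR20 and CPR70. CD3D, CD14, HBB, PECAM1 and CDH5 were not above the empty spots on any derivative array, and PTPRC, the pan-leukocyte marker CD45, was on 1 array in all. None of either list passed. Their part in the differences above was not tested.

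Interferon-stimulated genes had a median of 0.12, with 15 of 26 above 0 and 0 passed. ISG15, a ubiquitin-like modifier, had 3.41 and 1.90 in CPR40 and 4.27 and 1.56 in CPR55, against 2.83 and 1.32 in CPR20 and 1.94 and 1.30 in CPR70. It was above the parental level throughout, and its difference of 0.94 ± 0.31 (SE, adjusted p = 0.617) was 1.46 in the replicate 1 arrays and 0.42 in the replicate 2 arrays. The antiviral membrane protein BST2 was at 0.96 and below the parental level on every array. It was not above the empty spots in CPR20 or CPR70, against which its derivative signal was at least 1.24-fold higher. The RNA sensor OAS1 was at 0.47, with 0.11 in the derivative channel and -0.35 in the parental channel. Of 17 genes that respond to ERK signalling 5 were above 0 and 12 below, with a median of -0.26, and of 18 Wnt and Notch genes 13 were above 0, with a median of 0.20, and 0 passed in either list.

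Among stress and drug response genes XBP1, a transcription factor of the unfolded protein response, had -1.51 and -0.69 in CPR40 and -1.74 and -0.73 in CPR55, against -0.10 and -0.06 in CPR20 and -0.94 and -0.03 in CPR70. Its difference was -0.88 ± 0.21 (SE, adjusted p = 0.517), while its other clones were at -0.47 and 0.18. PMAIP1, the cell death protein NOXA, had 1.07 and 0.41 in CPR40 and 0.46 and 0.46 in CPR55, against 1.28 and 1.44 in CPR20 and 1.27 and 2.14 in CPR70. The pairs did not overlap and the difference was -0.93 ± 0.25 (adjusted p = 0.564), with 0.22 in the authors' deposited log2 values and 0.05 in their calibrated ratio. PFKP, a phosphofructokinase of glycolysis, was at -0.91 ± 0.21 (adjusted p = 0.514) and its other clone at -0.42, with replicate 2 over 2 log2 units above replicate 1 in each derivative. Of 15 platinum and copper handling genes 3 were above 0 and 12 below, and 0 passed. The copper pump ATP7A was at -0.78 (adjusted p = 0.632) and the drug efflux pump ABCB1 at -0.92 (adjusted p = 0.634). Both channels were higher in CPR40 and CPR55. The derivative and parental channels differed by 0.30 and 1.08 for ATP7A and by 0.38 and 1.30 for ABCB1.

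The derivatives of a pair were also set against each other. Between CPR40 and CPR55 0 of 13186 probes passed in limma, with 699 (5.3%) at an unadjusted p under 0.05. Between CPR70 and CPR20 0 passed, with 532 (4.03%) at that level. The pair contrast, which rests on 4 arrays a side in place of 2, had 476 on the positive and 435 on the negative side in the same fit by derivative, and 1022 in all (7.75%) in the fit by pair. Whether the pair difference itself differed between the array sets was tested as an interaction, in which 0 probes passed and 615 (4.66%) had an unadjusted p under 0.05. For CRYAB it was 2.70 in the replicate 1 arrays and 2.29 in the replicate 2 arrays, and for ACTA2 1.39 and 1.99.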

How the data were processed

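Each of the 8 arrays set derivative RNA in Cy5 against parental RNA in Cy3, per the labels. The deposited table gives a linear intensity per spot and dye, per the file headers. Whether a background was subtracted, and the image software, are not given in the sources used here. The authors' calibrated ratio is a constant multiple, within an array, of red over green, and the authors' log2 values in the series matrix equal its log2. The deposited spot area is another measure, with no unit stated, and 0 marks a spot that was not found. Another 8 value columns belong to no described sample and were not used.

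Empty spots and spots with no data (233 and 700 of 15360) were left out. Each intensity had 50 added to it, missing spots were left blank, log2 ratios were normalised by loess within arrays and spots of a clone were averaged. Of 13340 clones 13186 had a value in each derivative, and a gene was given by its brightest clone (9840 genes, 1263 with several clones). Of 9962 symbols 5429 were current in RefSeq (GRCh38.p14), 279 matched by gene ID and 2169 by an older name, 249 were ambiguous and 1836 unmatched. Promoters were found for 40 of 61 genes of the text.

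The pair and the array set were fitted with limma 3.58.1 in R 4.3.3 (5 residual and 3.25 prior degrees of freedom), tested on simulated data, with Benjamini-Hochberg adjusted p under 0.05 over all probes. Blank values shorten the fit of a probe. Deviations of same-numbered arrays from their derivative means correlated at 0.26 to 0.37, so the numbers pair the arrays. A spot was above the empty spots where it exceeded their median by 2.6 median absolute deviations on its array. A fold is a lower bound in the derivative channel, with brightness equalised between arrays, where a pair is not above them. It takes the higher pair as measured, even where few of its arrays were above the empty spots.

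The pairs, gene lists and rules were chosen with earlier results of these data known. Named genes were the 8 with the smallest p and pairs apart per direction, since 0 passed, the 5 most like and most opposite to CRYAB and ACTA2, and up to 3 per list by p, of which 1 is not reported here. ACTG2, HSPB2 and those of largest difference were chosen after their values were seen. The number of arrays limits the precision.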

Additional observations from a re-analysis of the deposited data

Results flagged for a closer look

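Of 122 groups of 4 arrays (61 genes, each in both pairs), 10 had 1 array far from the other 3 by Dixon's criterion, which chance alone gives in about 5% of groups. In CRYAB these were the CPR55 replicate 2 array at 1.39, with the other 3 of its pair at 3.36 to 3.54, and the CPR70 replicate 2 array at -0.573, with the others at 0.691 to 0.913. In GATA3 the CPR40 replicate 2 array stood at 1.14 and the others at 2.68 to 2.73. In PLCG1 the CPR20 replicate 2 array stood at -5.51 and the others at -0.488 to -0.4. In HOXA13 the CPR70 replicate 1 array stood at -0.846 and the others at 0.358 to 0.594. The CHORDC1 value of CPR40 replicate 1 was 0.439, against -0.309 to -0.238 on the others of the pair. That of PMAIP1 was 1.07 on the same array, against 0.414 to 0.46. The MMP9 value of CPR20 replicate 1 was -0.241, against -0.519 to -0.473. On the CPR70 replicate 1 array BST2 stood at -2.81, with the others at -1.62 to -1.43, and XBP1 at -0.937, with the others at -0.0999 to -0.0342.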

How the results depend on the processing

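The count of 0 probes past the threshold became 1 with an offset of 200 (NRG1), 1 with scaling between arrays (CLDN16), 1 with the authors' deposited log2 values (PSMC4, dimmer clone), 2 with a trended, robust prior (NRG1 and PSMC4) and 3 among the 5778 probes above the empty spots on at least 4 arrays (NRG1, ADAMTS5 and PSMC4), all with the pairs apart in each set. That filter admits a probe through the pair where it is high (4 arrays of that pair and 2 of the other for each of the 3), so these passes are no support. Leaving out 1 array gave 0 to 1, the 1 being GATA3 without CPR40 replicate 2. Without the replicate block 0 probes passed, with 312 on the positive and 297 on the negative side at an unadjusted p under 0.05 (510 and 512 with it). The replicate block changed no other call. These counts were 324 and 218 in replicate 1 arrays alone. With the authors' log2 values 582 and 146 probes stood on the 2 sides (79.9% positive, 49.9% in the fit above), where the median of all probes was shifted by 0.13, and 700 and 304 had the pairs apart. Among probes above the empty spots 282 lay on the positive side, and 289 and 354 had the pairs apart, with fewer probes tested. Leaving out 1 array gave 382 to 568 and 328 to 603, the lowest of both without CPR70 replicate 2. Pairs were apart for 720 to 957 and 799 to 1033 probes without 1 array, for 1992 and 2076 in replicate 1 arrays alone and for 2109 and 2596 in replicate 2 arrays alone, since fewer arrays have to be in order. CPR70 minus CPR20 gave 1 probe with normexp, 1 with scaling and 3 with the trended prior.

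Differences that changed sign were those of ACTG2 with normexp (-0.217), PPARG with the authors' log2 values (0.00372), PMAIP1 with those values (0.218) and with the calibrated ratio (0.051), PSMC4 with the mean of its clones (0.665), and HSPB2 in replicate 1 arrays alone (-0.435) and without 1 array (-0.185, without CPR70 replicate 2, to 0.74). CRYAB was at 4.25 with the authors' log2 values and 4.08 with the calibrated ratio, and ACTA2 at 0.696 with normexp. TMSB4X was at 0.0296 with normexp, CTSB at 0.141 with the calibrated ratio, TYMS at -0.0478 with the authors' log2 values and CCND1 at 0.383 with the mean of its clones. The cause was not tested. Signal near the empty spots limits the ratios of dim genes in either dye.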
